A study of Drosophila melanogaster with 13 samples.

Results

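Wild type Ubx was compared with a DNA-binding mutant of Ubx by the chromatin immunoprecipitation sequencing (ChIP-Seq) peaks that each protein gave in the same experiment. The comparison took the 2 peak lists of the mutant and the 2 of the wild type, one list at a q-value of 1e-10 (stringent) and one at 1e-2 (relaxed) for each protein. These 4 lists held 24029 peaks out of 93820 in the 12 lists of the series. A mutant peak and a wild type peak were taken as partners, or a pair, when their overlap covered at least 5% of each of them.

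The series profiled GFP fusions of the Bithorax complex proteins Ubx, Abd-A and Abd-B in Kc167 cells, a female Drosophila line of embryonic origin that makes no Hox protein of its own and lacks functional Exd and Hth cofactors. The cells were transfected transiently with fusion genes under the inducible metallothionein promoter, sorted for a common range of GFP fluorescence and immunoprecipitated with an antibody against GFP. Experiment 1 held Ubx, Abd-A, Abd-B and the input chromatin with 36 bp reads, and Experiment 2 held mutant Ubx, wild type Ubx and Ubx with Hth (Ubx+Hth) with 100 bp reads. The input of Experiment 1 was the control for every list.

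The mutant group was Ubx-GFP with the homeodomain changes R3A, R5A, I47A, Q50K and N51A, counted along the homeodomain, in 2 replicates that the authors pooled before peaks were called. The wild type group was Ubx-GFP of Experiment 2 in 1 replicate. Each protein therefore had 1 list at each q-value, no spread between replicates could be computed, and no test was made. The 95% intervals below are Wilson intervals for shares and order-statistic intervals for medians, and they cover the counting of peaks only, since peaks are not replicates. The study lists several times more reads for the mutant than for wild type Ubx, so the effects of depth and of the mutations on a list cannot be told apart.

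Ubx is a Hox transcription factor that gives segments of the fly trunk their identity, for example the haltere in place of a wing. Its homeodomain folds into helices, of which the recognition helix lies in the major groove of DNA and holds Ile47, Gln50 and Asn51, while a flexible N-terminal arm with Arg3 and Arg5 reaches into the minor groove. Asn51 contacts an adenine in nearly every homeodomain complex, and Gln50 helps to set the preference for the bases next to the core. Hox proteins can also be held at chromatin through partner proteins such as Exd and Hth.

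The mutant stringent list was the shorter and held narrower peaks. It had 1793 peaks covering 672.6 kb, against 4218 peaks covering 2574.9 kb in the wild type list. The middle 50% of peak widths ran over 230 to 425 bp in the mutant and over 328 to 731.75 bp in wild type. The narrowest peak was 173 bp in both mutant lists and 229 bp in both wild type lists, so the lists also differed in the least width a peak could have. Peaks carry as score their q-value on the -log10 scale and were ranked by it within their own list. Many scores recur, with 860 distinct values in the mutant stringent list and 2180 in the wild type one, so that many ranks are tied.

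The stringent lists were not simply the top of the relaxed lists. Of 3547 relaxed mutant peaks with a score of 10 or more, 1633 (46.0%, 44.4 to 47.7) overlapped a stringent mutant peak and 1914 did not. Of 6008 such wild type peaks, 3718 (61.9%, 60.6 to 63.1) overlapped a stringent wild type peak and 2290 did not. In the 4 other profiles that share was between 66.5% (Ubx of Experiment 1) and 79.6% (Abd-B). The highest relaxed score without a stringent peak was 46.6 in the mutant and 69.3 in wild type. A site that is missing from a stringent list may therefore still have had a score of 10 or more, and this was most frequent, among the 6 profiles, in the mutant.

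The matching gave 1600 stringent pairs. They joined 1596 of the 1793 mutant peaks (89.0%, the share over the whole list) to 1440 of the 4218 wild type peaks (34.1%). In base pairs the overlap was more uneven, with 88.6% of the sequence under mutant peaks and 23.1% of that under wild type peaks shared. At the relaxed q-value 66.9% of mutant peaks (6253 of 9346) and 61.3% of wild type peaks (5312 of 8672) had a partner, in 6280 pairs. Few pairs lay near the minimum of 5%. Of 1603 stringent pairs that overlapped at all, 3 lay below it, the closest at 4.71%, and the lowest pair above it stood at 5.04%. A minimum of 50% left 37.0% of mutant peaks and 15.7% of wild type peaks with a partner. With the wild type list shortened to the 1793 highest scores the shares were 67.9% and 59.3%. With equal length and mostly single partners the shares must lie close together, so the narrower gap carries no information. When both lists were limited to relaxed peaks with a score of 10 or more, 89.9% of mutant peaks and 47.7% of wild type peaks had a partner.

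In the stringent lists the share with a partner varied less along the mutant list than along the wild type list, and in the relaxed lists it fell in both. With each list divided by score into 10 nearly equal parts, stringent mutant peaks had a wild type partner in 91.2% of the highest part, 94.9% of the next and 81.1% of the lowest. Wild type peaks had a mutant partner in 89.8% of the highest part, 65.3% of the next, 46.5% and 42.1% of those that followed, and 27.4% of the fifth. The decline among wild type peaks was thus steepest within the upper 50% of the list. Against the relaxed mutant list the wild type share stayed at 90.5% in the fifth part and was 66.1% in the lowest. Within the relaxed lists the decline was alike, with 97.4% in the highest and 21.9% in the lowest part of the mutant list and 98.3% and 17.3% in those of the wild type list.

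**Figure D1:**
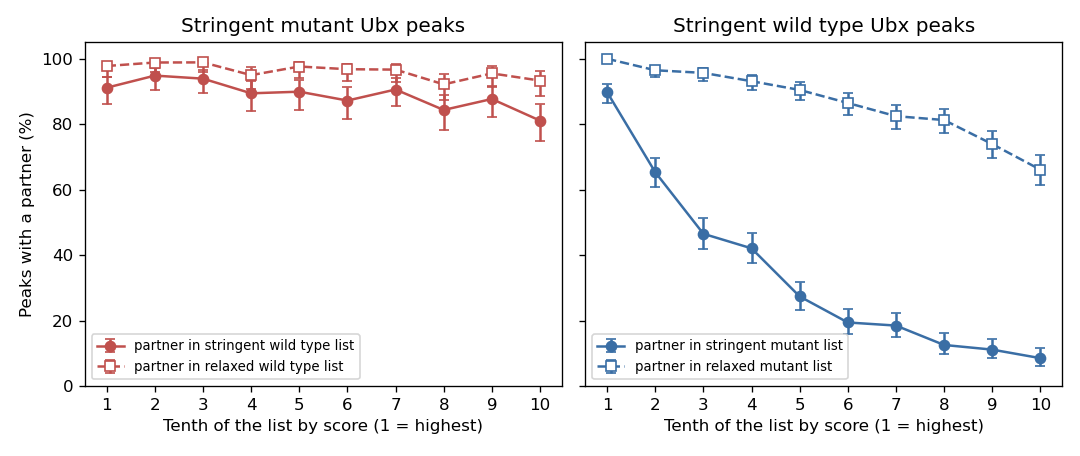
Share of stringent mutant Ubx peaks (left) and stringent wild type Ubx peaks (right) that had a partner in the other list, in %, for 10 nearly equal parts of each list from the highest scores (1) to the lowest (10), with Wilson 95% intervals as bars. The mutant shares lie between 81.1% and 94.9% for stringent partners (filled circles), whereas the wild type shares run from 89.8% in the highest part to 8.53% in the lowest, and those for relaxed partners (open squares) stay at 66.1% or more.

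Ranks in the pairs agreed only loosely. The mutant peak of a pair stood at a median of 48.4% of its list (45.9 to 50.3) and the wild type peak at 20.8% of its own (19.3 to 22.8). The mutant peak had the better rank, in % of its list, in 348 stringent pairs (21.75%) and in 2850 relaxed ones (45.4%). The stringent lists hold 1793 and 4218 peaks, and this difference in length shifts such ranks by itself, so the stringent share is no measure of a change in the mutant. Spearman's rho of the scores over the 1600 pairs was 0.43, and 0.46 over the 1298 pairs in which both peaks had no other partner. For comparison, rho with the wild type list was 0.74 over 3662 pairs for Ubx of Experiment 1 and 0.65 over 4178 pairs for Ubx+Hth. The wild type peaks in those pairs stood at medians of 43.7% and 49.3% of their list, against 20.8% for the mutant. The correlations are therefore not over like wild type peaks. These correlations are over peaks that share the input control, and in Experiment 2 also the cells and the platform, so they are descriptions. Agreement was closest at the top of the mutant list. In its highest 10%, 72.3% of pairs had a wild type partner in the highest 10% of the wild type list, against 52.1% in the next part and 15.1% in the lowest.

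**Figure D2:**
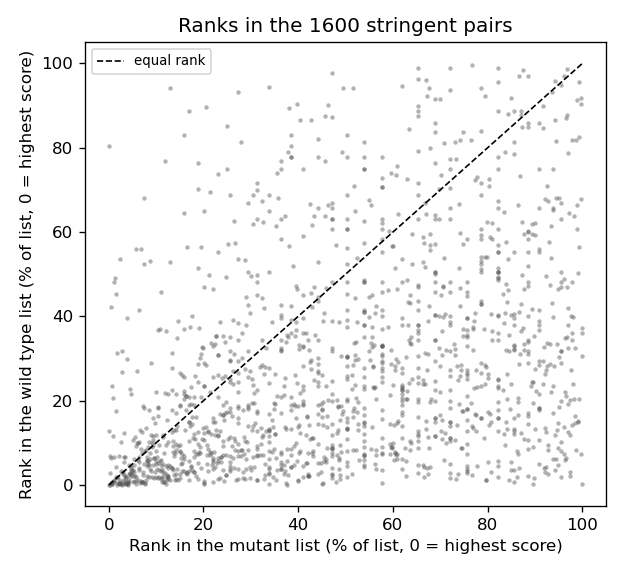
Rank of the mutant peak (x axis) against rank of its wild type partner (y axis) in the 1600 stringent pairs, each in % of its own list with 0 as the highest score, and 1 point for each pair. Points crowd the lower left corner, and 348 pairs lie above the dashed line of equal rank. The lists differ in length (1793 mutant and 4218 wild type peaks), which alone moves points below the line, and columns of points mark tied scores.

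The individual pairs show how far ranks could part. The highest mutant peak with a partner lay at 2L:21424918-21425294 of genome release 5, scored 379 and had rank 1, and its wild type partner at 2L:21424895-21425287 scored 343 and had rank 2. The mutant peak at 2L:22413429-22415624 (score 242, rank 2) had 2 wild type partners, of which the higher scored 68.0 with rank 540 of 4218. On chromosome 4 a mutant peak at 615496-616015 (score 177, rank 4) met a wild type peak at 615503-616001 (score 88.3, rank 291). On 3R, 13336452-13336872 had rank 5 in the mutant (score 173) and rank 116 in wild type (score 118), at 13336413-13336813. Also on 3R, 12062036-12063460 had rank 6 in the mutant (score 167), and its partner at 12059950-12063606 was the highest wild type peak (score 359). Of these 5 pairs, that last one was the only one whose mutant peak was much narrower than its partner, with a width ratio of 0.39. It was also the only one with a stringent partner in Ubx, Abd-A or Abd-B of Experiment 1.

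The pairs with the largest differences of rank, in % of lists of unequal length, are given as single cases. Those with the better rank in the mutant were on 2L and 3R. The mutant peak at 2L:850773-851150 stood at 12.8% of its list (rank 230), and its wild type partner at 2L:850461-851091 stood at 94.2% (rank 3975). The mutant peak with rank 2, at 2L:22413429-22415624, also took in a wild type peak at 22415195-22415548 that stood at 80.5%. At 3R:13429438-13429646 the mutant peak stood at 16.9% (rank 298) and the wild type peak at 88.6% (rank 3720). In these 3 pairs a low wild type peak met a mutant peak of the upper 20% of its list. Those with the better rank in wild type were narrow mutant peaks in wide wild type peaks. The lowest mutant peak of all, 209 bp at X:12560247-12560455 (score 10.1, rank 1793), lay in a wild type peak of 2537 bp at X:12558395-12560931 (score 237, rank 12). A 208 bp mutant peak at X:10216441-10216648 (rank 1748) lay in a wild type peak of 1176 bp with rank 92. A 348 bp mutant peak at 2R:159975-160322 (rank 1745) lay in one of 2448 bp with rank 129.

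The highest pairs on the other chromosomes differed in the same way. On 2R a mutant peak at 751663-752022 (rank 18) met a wild type peak at 48.1% of its list, and on 3L one at 9571180-9571562 (rank 8) met one at 42.2%. On the mitochondrial genome a mutant peak with rank 17 met a wild type peak at 11.6%. On X both were near the top, with the mutant peak at 12647576-12648427 (852 bp, rank 12) inside a wild type peak of 3302 bp with rank 5. The pairs on 2R, 3L and the mitochondrial genome were of nearly equal width or wider in the mutant, with ratios of 1.15, 1.42 and 1.01, and the pair on X had a ratio of 0.26.

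In most pairs the mutant peak was the narrower. The ratio of mutant to wild type width had a median of 0.46 (0.43 to 0.47), its 5th and 95th percentiles were 0.13 and 1.01, and the mutant peak was the wider in 86 pairs (5.38%, 4.37 to 6.59). In the 1298 pairs without other partners the median ratio was 0.52 (0.51 to 0.55). Relaxed pairs had a median ratio of 0.52 (0.51 to 0.53). Ubx of Experiment 1 and Ubx+Hth had wider peaks than wild type Ubx in their pairs with it, with median ratios of 1.09 (1.08 to 1.10) and 1.42 (1.41 to 1.45). By score of the mutant peak, the median ratio was highest in the upper 10% of the list (0.64) and least in the lowest 10% (0.36).

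**Figure D3:**
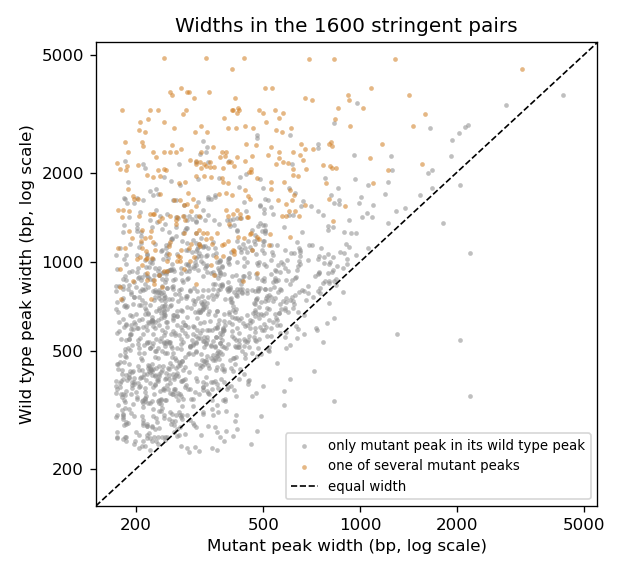
Width of the mutant peak (x axis) against that of its wild type partner (y axis) in bp on log scales for the 1600 stringent pairs, with grey points for mutant peaks alone in their wild type peak and orange points for those that share it with other mutant peaks. All but 86 points lie on or above the dashed line of equal width, the grey points spread over the whole range of ratios, and the orange points lie at the widest wild type peaks.

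The width of a mutant peak grew with that of the wild type peak around it, but less than in proportion. Wild type peaks under 400 bp had a median mutant partner of 245 bp, those of 800 to 1000 bp one of 345.5 bp and those of 2000 bp or more one of 418 bp. The median ratio was 0.80, 0.38 and 0.16 in these classes. In the relaxed lists the median mutant partner was 279 bp in wild type peaks under 400 bp and 674 bp in those of 2000 bp or more. Wider wild type peaks also had a mutant partner more often. This was so for 14.5% (239 of 1648) under 400 bp, 58.9% (215 of 365) at 800 to 1000 bp and 94.6% (87 of 92) at 2000 bp or more. A wide peak offers more sequence for an overlap, and wide peaks also had high scores. Within each of the 10 parts of the wild type list by score, matched peaks were nonetheless wider than unmatched ones, with medians of 1057 and 658 bp in the highest part and 353 and 308 bp in the lowest.

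Mutant peaks lay mostly within the wild type peak. In 1247 pairs (77.9%, 75.8 to 79.9) the whole mutant peak was inside its partner, in 25 pairs (1.56%) the reverse was true, and the centre of the mutant peak fell inside the wild type peak in 1566 pairs (97.9%). Centres lay a median of 112 bp apart (103 to 124), against 59 bp (56.5 to 62) for Ubx of Experiment 1 and 72 bp (69 to 75.5) for Ubx+Hth. In pairs without other partners these medians were 79, 50.5 and 56 bp. The wild type peaks in all pairs had median widths of 789.5, 522 and 474 bp in the same order. The distances are therefore not over like wild type peaks. No side was preferred, with a median signed distance of -3.5 bp (-11 to 3.5) along the chromosome. The distance grew with the wild type peak, from a median of 38.5 bp in peaks under 400 bp to 645 bp in those of 2000 bp or more.

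Within the wild type peak, the place of a mutant peak was measured in the free room, that is, over all positions that a peak of its width could take without leaving the wild type peak. Mutant peaks that were alone in their partner lay in the middle 50% of that room in 547 of 975 cases (56.1%, 53.0 to 59.2), where even spread would give 50%. In wild type peaks under 600 bp the share was 66.1% (60.8 to 71.1), in those of 600 to 1000 bp 54.9% (49.9 to 59.7) and in those of 1000 bp or more 46.1% (40.2 to 52.1). Thus centring was visible in narrow wild type peaks, and in the wide ones the interval included an even spread. The relaxed pairs gave 61.1%, 53.8% and 50.7% in the same classes. Only mutant peaks wholly inside their partner have a place in the free room. In the stringent lists these were 42.7% of pairs at wild type peaks under 400 bp and 96.4% at 2000 bp or more. The width classes were therefore selected unequally. Mutant peaks that shared a partner lay in the middle in 78 of 272 cases (28.7%), as follows in part from their having to lie side by side.

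**Figure D4:**
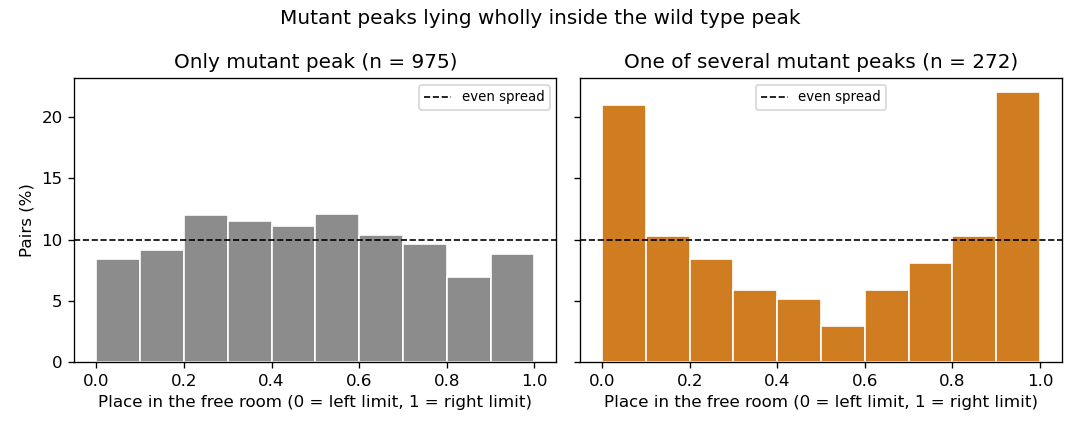
Place of the mutant peak in the free room of the wild type peak (x axis, 0 for the left limit and 1 for the right limit) as % of stringent pairs (y axis), for the 975 mutant peaks alone inside their partner (left) and the 272 that shared one (right), with an even spread as a dashed line. The bars on the left are somewhat higher in the middle than at the limits, where 56.1% lie in the middle 50%, and those on the right are highest at both limits, where 28.7% lie in the middle.

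Several mutant peaks could share 1 wild type peak. Of the 1440 matched wild type peaks, 1306 had 1 mutant partner, 113 had 2, 17 had 3, 3 had 4 and 1 had 5, so that 134 (9.31%, 7.91 to 10.9) had 2 or more. In the other direction 4 mutant peaks had 2 wild type partners. The share of matched wild type peaks with several partners was 1.81% (1.42 to 2.30) for Ubx of Experiment 1 and 0.820% (0.588 to 1.14) for Ubx+Hth. These shares are not over like peaks. Wild type peaks in the pairs had a median width of 789.5 bp for the mutant, 522 bp for Ubx of Experiment 1 and 474 bp for Ubx+Hth. Several mutant partners were found at 0% of matched wild type peaks under 400 bp and at 64.4% of those of 2000 bp or more. The 134 wild type peaks had a median width of 1728.5 bp, against 672 bp for those with 1 mutant partner, and stood at a median of 7.55% of the list. Mutant peaks covered nearly the same portion of the wild type width in both classes, with medians of 50.3% for several mutant peaks and 50.6% for 1. At the relaxed q-value 786 of 5312 wild type peaks (14.8%) had 2 or more.

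The most mutant peaks in 1 wild type peak were 5, on 2L. They began at 479101, 479536, 480155, 480632 and 481259, were 181 to 484 bp wide and had ranks of 163 to 1453, and the wild type peak at 2L:478689-481929 spanned 3241 bp with rank 80 (score 135). The strongest of the 5 was the last, at 481259-481742 (score 51.8), near one end of the wild type peak. On X, 4 mutant peaks with ranks 45, 1015, 60 and 138 from left to right lay in the wild type peak at 9476469-9480330 (3862 bp, rank 22). On 2L, 4 with ranks 315, 1519, 192 and 1688 lay in the wild type peak at 246659-250386 (3728 bp, rank 154). In all 3, at least one mutant peak stood in the upper 20% of its list and at least one in the lower 50%.

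Mutant peaks without a stringent partner were narrower as a class and of somewhat lower rank. The 197 such peaks had a median width of 241 bp (226 to 248), against 315 bp (307 to 324) for the 1596 with a partner, and stood at a median of 61.9% of the list (57.8 to 68.9), against 48.4%. By score, the unmatched peaks were the narrower in 8 of 10 parts of the list. In the lowest pair of parts, with 22 and 34 of the 197, they were the wider, with medians of 252.5 bp against 239 bp and 252 bp against 238 bp. Only 3 of the 197 touched a stringent wild type peak at all, and their median distance to the nearest one was 6.39 kb. A relaxed wild type partner was found for 164 of them, and 33 had none at either q-value. Those 33 stood at a median of 50.3% of the list (33.8 to 70.9).

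The highest of the 197 ranked near the top of the mutant list. They lay at 3L:23842336-23842649 (rank 3), X:21764435-21764742 (rank 9), 4:614866-615108 (rank 23), 3L:23106042-23106308 (rank 24) and 4:613180-613527 (rank 25). Their relaxed wild type partners stood at 9.88% of the relaxed list for the first, 25.6% for the peak on X, 38.5% for the other peak on 3L and 29.3% for the last, and the peak at 4:614866-615108 had none. All 5 had a Ubx+Hth partner, stringent for the first 2 and relaxed for the other 3, and Experiment 1 held no partner for any of them. These 5 peaks were 243 to 348 bp wide, in the range of the mutant list as a whole.

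Wild type peaks without a stringent mutant partner made up most of the list but seldom its top. The 2778 peaks had a median width of 395 bp (387 to 405), against 724 bp (691 to 754) for the 1440 with a partner, and a median place of 62.5% (60.8 to 64.1), against 23.2% (21.2 to 25.01). Of them, 2213 had a relaxed mutant partner and 565 had none. At these 2213 peaks the highest-scoring mutant partner had a median score of 10.3 and exceeded 10 at 1147. The median was 25.2 at the 1440 peaks with a stringent partner. Among all 9346 relaxed mutant peaks, 3547 scored 10 or more. The 3 classes formed a gradient in width, with medians of 724 bp for stringent partners, 420 bp for relaxed ones and 319 bp for none, and in score, with 50.6, 28.0 and 21.6.

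At the highest wild type peak without a stringent mutant partner, 3R:25926218-25926763, the relaxed mutant peak scored 5.53 and stood at 66.8% of its list, and the wild type peak scored 145.5 with rank 62. At X:19179238-19179905 the relaxed mutant peak scored 8.23, and the wild type peak had rank 111. At 2R:4570477-4570877 the mutant score was 12.9 and the wild type rank 115. At 3L:14182931-14184177 the mutant score was 21.0 and the wild type rank 124, and at 3R:10172466-10173175 they were 18.7 in the mutant and 138 in wild type. Thus 3 of these 5 sites had a mutant score over 10 and no stringent mutant peak. The highest wild type peaks without a mutant partner at either q-value came at rank 440 (2R:19869015-19869560), rank 461 (3R:8265024-8265487) and rank 464 (2R:16027004-16027446), with scores of 73.1 to 74.4. All 8 of these wild type peaks had a stringent partner in each of the 4 other profiles.

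The other profiles gave a measure that the matching did not use. Unmatched wild type peaks were nearly all found elsewhere. Ubx+Hth held a stringent partner for 97.5% of them, Abd-B for 95.8%, Abd-A for 90.1% and Ubx of Experiment 1 for 80.1% (78.6 to 81.5). For matched wild type peaks the shares were 99.7%, 97.6%, 96.9% and 95.3%. Matched peaks also score higher, and within the 10 parts of the list by score their share was the higher in 7 parts for Ubx+Hth, 3 for Abd-B, 7 for Abd-A and 6 for Ubx of Experiment 1. Each of the 2778 unmatched peaks had a partner in at least 1 of the 4 profiles at one of the q-values.

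Unmatched mutant peaks were found elsewhere less often. Among the 197, 77.2% (70.8 to 82.5) had a stringent Ubx+Hth partner, 72.1% an Abd-B, 54.3% an Abd-A and 44.2% (37.4 to 51.1) a Ubx partner of Experiment 1, against 98.7%, 94.7%, 96.2% and 95.2% for the matched mutant peaks. The matched share was the higher in all 10 score parts of the mutant list for each of the 4 profiles. Counting any overlap at either q-value, 96.4% of the 197 touched a Ubx+Hth peak and 78.7% a Ubx peak of Experiment 1. Of the 3093 relaxed mutant peaks without a relaxed wild type partner, 633 (20.5%) touched a Ubx+Hth peak, against 85.2% of the 3360 relaxed wild type peaks without a mutant partner. These unmatched classes were not alike, with median scores of 4.60 and 8.66 and median widths of 237 and 404 bp. Relaxed peaks with a partner touched a Ubx+Hth peak in 98.8% of cases in either list.

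**Figure D5:**
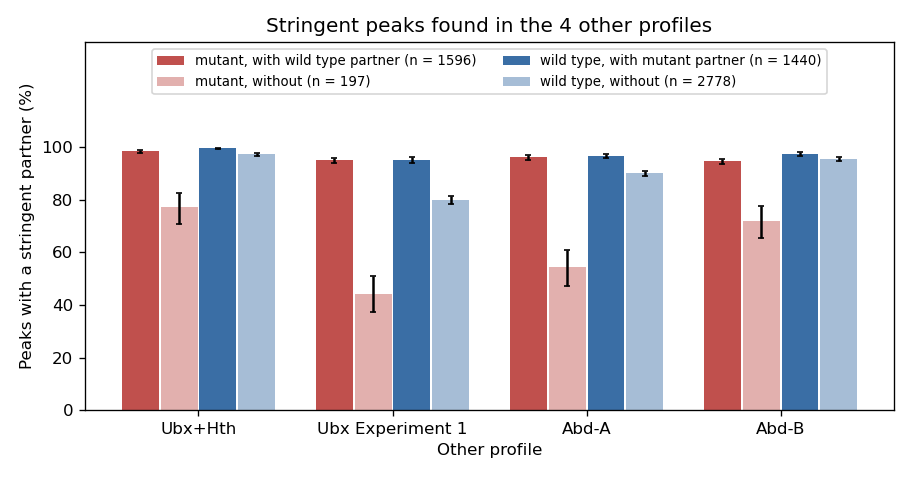
Share of stringent mutant and wild type Ubx peaks, with and without a partner in each other's stringent list, that had a stringent partner in each of the 4 other profiles, in % with Wilson 95% intervals as bars. The 197 unmatched mutant peaks (pale red) stand lowest in every profile, from 77.2% in Ubx+Hth to 44.2% in Ubx of Experiment 1, and the 2778 unmatched wild type peaks (pale blue) reach 80.1% to 97.5%.

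The top of the mutant list was rich in sites that Experiment 1 did not show. Among its 25 highest peaks, 15 (60.0%, 40.7 to 76.6) overlapped no peak of Ubx, Abd-A or Abd-B in Experiment 1 at either q-value. The number was 1 of 25 in the wild type list and 2 of 25 in the Ubx+Hth list. Among the remaining mutant peaks after the first 100, it was 32 of 1693 (1.89%). Over the whole stringent lists it was 59 of 1793 (3.29%) in the mutant, 27 of 4218 (0.640%) in wild type and 270 of 7971 (3.39%) in Ubx+Hth. The mutant and Ubx+Hth thus had like shares of such sites and differed in their place by rank. Of the 15, 14 overlapped a wild type peak and all 15 a Ubx+Hth peak, at one of the q-values. The 2 experiments differed in culture, sequencing platform and read length, and the input belonged to Experiment 1. The mutant, wild type and Ubx+Hth lists, however, all came from Experiment 2 and shared the platform, the read length and the input. By the study's read counts the mutant also had more reads than wild type Ubx, and Ubx+Hth had more than the mutant. The sources of the difference between these lists were not tested and cannot be told apart.

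These sites were frequent near the inner, centromere-side ends of the chromosome arms. Of the 59 stringent mutant peaks without overlap in Experiment 1, 31 (52.5%) lay within 2 Mb of the innermost peak of an arm, where 110 of all 1793 mutant peaks (6.13%) and 250 of 4218 wild type peaks (5.93%) lay. The trait was not particular to the mutant. Of the 27 stringent wild type peaks without such overlap, 11 (40.7%) lay in these windows, as did 43 of 270 (15.9%) for Ubx+Hth. Unmatched mutant peaks were also more frequent there, with 29 of 197 (14.7%, 10.4 to 20.3) against 5.08% (4.10 to 6.26) of the matched ones. Relaxed mutant peaks gave 13.8% without and 6.72% with a partner. Unmatched and matched wild type peaks differed little, with 6.19% (5.35 to 7.15) and 5.42% (4.36 to 6.71).

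The share of peaks on a chromosome had overlapping intervals in the 2 stringent lists except on X. X held 22.9% of mutant peaks (21.0 to 24.9) and 19.5% of wild type peaks (18.3 to 20.7), and 38.2% of the wild type peaks on X had a mutant partner (35.0 to 41.6), against 31.7% to 34.2% on 2L, 2R, 3L and 3R. At the relaxed q-value the shares on X were 18.4% for the mutant and 18.6% for wild type. There 63.3% of the wild type peaks on X had a partner, against 58.1% (2L) to 63.1% (3R) on those arms. Chromosome 4, the small and largely heterochromatic chromosome, held 10 mutant peaks (0.558%, 0.303 to 1.02) and 37 wild type peaks (0.877%, 0.637 to 1.21). A partner was found for 6 of the 10 mutant peaks and 6 of the 37 wild type peaks (16.2%, 7.65 to 31.1). On the other arms between 85.8% (3L) and 92.6% (2L) of mutant peaks had a partner. The mitochondrial genome held 2 mutant peaks and 1 wild type peak. At the relaxed q-value it was chromosome 4 whose intervals did not overlap. It held 0.760% of mutant peaks (0.603 to 0.957) and 1.22% of wild type peaks (1.01 to 1.48).

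No gene was assigned to a peak, because the positions belong to release 5 and the genes could be placed only on release 6. For the same reason the sequences under the peaks, on which the homeodomain changes would bear, were not analysed here.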

How the data were processed

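The authors mapped paired reads to BDGP release 5 with Bowtie 1.0.1, kept reads that mapped uniquely, pooled replicates (2 for mutant Ubx, 1 for wild type Ubx), discarded reads from the exons of transfected genes and ran MACS2 2.1.0.20140616 against the Experiment 1 input. Their notes also name SAMtools 0.1.19 and bedtools 2.19.1. The deposited score is the -log10 of the q-value; it was ranked within each list, with ties given their mean rank. Depth cannot be read from the lists. Partners were found with numpy 2.4.6 and pandas 2.3.3 under python 3.11.15, and bedtools 2.31.1 gave equal counts in 44 of 44 comparisons. The matching was tested on simulated data. Intervals came from scipy 1.17.1 and plots from matplotlib 3.10.9. The members, classes and named peaks were chosen with earlier results of these data known. Peaks named are the 5 highest mutant peaks with and without a stringent partner, the 5 highest wild type peaks without one and 3 without a relaxed one, the 3 wild type peaks with most partners, the 3 largest gains and losses of rank, and the highest pair per chromosome. Alternatives were an overlap of 1 bp or 50%, the relaxed lists, lists of equal length, merging of peaks under 100 bp apart, partners sought in the relaxed list, no mitochondrial genome and, added after seeing the data, relaxed peaks with a score of 10 or more.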

Additional observations from a re-analysis of the deposited data

How the results depend on the processing

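The 11 values of the comparison were recomputed in 68 ways, of which 28 stayed within the interval of the main value and 40 did not. Merging of peaks under 100 bp apart left every value exactly as in the main setting, so it tested nothing. An overlap of 1 bp added only 3 pairs to the 1600 and could hardly move a value, and all stayed within the interval. In each setting the values are, in order, the shares of mutant and wild type peaks with a partner, the width ratio, rho, the share of wild type peaks with several partners, the distance of centres, the share of mutant peaks inside, and the unmatched to matched width ratio and median place for mutant, then wild type peaks. At a minimum overlap of 50%, which a narrow peak in a wide one cannot meet, they were 37.0%, 15.7%, 0.71, 0.57, 0%, 44.25 bp, 67.0%, 0.71, 55.8%, 0.88 and 54.4%. That minimum bars mutant peaks under 50% of their partner's width and in effect a second mutant peak. It thus raises the width ratio by itself and fixes the 0%. In the relaxed lists they were 66.9%, 61.3%, 0.52, 0.49, 14.8%, 141.5 bp, 66.8%, 0.56, 77.4%, 0.49 and 74.2%. With lists of equal length, which drops the weaker wild type peaks, partner shares were 67.9% and 59.3%, the width ratio 0.40, several partners 12.0%, the distance 128.5 bp, peaks inside 86.2%, and unmatched wild type width ratio and place 0.62 and 65.4%. Partners sought in the relaxed list gave 96.3% and 86.6%. Relaxed peaks with a score of 10 or more, chosen after seeing the data, gave 47.7% of wild type peaks with a partner, a width ratio of 0.57, a distance of 147 bp, 69.8% inside, 0.53 and 74.4% for unmatched mutant peaks and 0.58 and 67.2% for unmatched wild type peaks. Otherwise the cause of these moves was not tested. Of 26 values for shares by chromosome, 22 stayed within the interval.

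No paired analysis was possible because the mutant replicates were pooled before peaks were called and wild type Ubx had 1 replicate. Values without a given replicate were not computed, on the same ground. The mutant had more reads and its lists a lower least width, and the part of either in the values was not tested.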
